A study of Mus musculus with 8 samples.

Results

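The 9 genes described here, *Sox1*, *Sox2*, *Six3*, *Hesx1*, *Otx2*, *En1*, *En2*, *Gbx2* and *Egr2*, encode transcription factors that set up the neural plate and divide the early brain into regions. They were read from every array probe whose RefSeq transcript belongs to one of these symbols, which gave 10 probes for 9 genes, 2 of them for *Sox1*, out of 55681 different probes on the array. The array data cover 8 wild-type mouse embryos at E8.5, each on its own one-colour array, and 4 of them were sired by WT fathers and 4 by HET fathers. HET fathers carried 1 copy of Eedl7Rn5-1989SB, a chemically induced hypomorphic point mutation in *Eed*, a core subunit of Polycomb Repressive Complex 2 (PRC2), and WT fathers carried none. All mothers and all 8 embryos were wild type for *Eed*, the labels give a mixed C57bl6/129 background for both parents where a legend of the study names C57bl/6J mothers, and per the methods the colony also carried an Oct4GFP transgene. The comparison asks whether one mutant copy of *Eed* in the father leaves a trace in the expression of offspring that did not inherit it.

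Each father group held 2 female and 2 male embryos, matched by appearance to the same developmental time point. RNA came from whole embryos, so fewer cells of a region and less RNA in each cell cannot be told apart. Each father group was hybridised on a separate slide, and an effect of the slide and one of the father cannot be told apart either. In the WT father group 3 of the 4 embryos share an embryo code whose meaning is not given, and nothing in the labels says that embryos came from separate litters. The study's legends differ on the number of sires, and some embryos of a group may share a father, so the p-values measure the spread between these samples only. Signals are given as log2 intensity with the 75th percentile of each array set to 0. Between 29204 and 39545 probes were well above background on an array, and 33096 probes were tested. HET father replicate 3 stood apart from the others, with a median probe signal of -3.13 on this scale against -4.59 to -3.75 on the other 7 arrays. Besides embryonic markers (8 of 8 cardiac, 7 of 7 primitive erythroid and 6 of 7 somite genes), 8 of 8 yolk sac endoderm genes and 6 of 8 trophoblast and decidua genes were bright enough to test.

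At this stage the neural plate is closing into a tube and its front end is already patterned. SOX1 and SOX2 keep neural plate cells as progenitors. SIX3 and HESX1 act in the anterior forebrain. OTX2 marks forebrain and midbrain, GBX2 marks the anterior hindbrain, and their expression meets at the midbrain-hindbrain boundary, or isthmus, where the Engrailed proteins EN1 and EN2 are made. EGR2, also known as KROX20, marks a pair of hindbrain segments. Regulators of this kind are classical targets of PRC2, and *Six3*, *En1*, *En2* and *Gbx2* are in the study's own list of known PRC2 targets.

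PRC2 is known to settle at promoters rich in CpG dinucleotides, so promoters from the ends of the range are given here, with that of *En1*, the gene near background on these arrays, between them. Sequences and positions are from RefSeq on build GRCm38.p6. Each runs 5′ to 3′ on the gene's strand, from 250 bases before the start of the transcript to 50 after it, and capitals mark every CpG. *Sox1* at chr8:12395269-12395568 (plus strand) has 37 CpGs, more than any other member promoter, *En1* at chr1:120602237-120602536 (plus strand) has 23, and *Hesx1* at chr14:27000112-27000411 (plus strand) has 4, the fewest.
Sox1: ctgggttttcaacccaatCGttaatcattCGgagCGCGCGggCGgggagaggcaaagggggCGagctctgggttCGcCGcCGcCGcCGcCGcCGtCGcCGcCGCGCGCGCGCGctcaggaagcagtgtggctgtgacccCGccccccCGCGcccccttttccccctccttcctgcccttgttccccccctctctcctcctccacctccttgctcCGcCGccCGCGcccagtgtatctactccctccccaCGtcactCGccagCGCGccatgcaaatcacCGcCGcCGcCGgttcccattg
En1: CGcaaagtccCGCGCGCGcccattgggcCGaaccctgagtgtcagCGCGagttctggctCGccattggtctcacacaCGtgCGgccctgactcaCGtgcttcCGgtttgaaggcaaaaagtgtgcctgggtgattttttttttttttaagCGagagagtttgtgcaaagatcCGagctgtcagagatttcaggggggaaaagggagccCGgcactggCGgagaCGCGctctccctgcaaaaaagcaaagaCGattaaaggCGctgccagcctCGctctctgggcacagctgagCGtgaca
Hesx1: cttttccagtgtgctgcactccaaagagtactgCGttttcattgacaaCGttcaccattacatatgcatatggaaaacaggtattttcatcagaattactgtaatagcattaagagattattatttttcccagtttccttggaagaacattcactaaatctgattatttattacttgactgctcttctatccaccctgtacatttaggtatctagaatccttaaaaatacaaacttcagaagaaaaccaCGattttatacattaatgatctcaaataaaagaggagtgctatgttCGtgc
The arrays measured RNA, and nothing was measured at these promoters. Promoters were listed for 8 of the 9 genes, 15 promoters in all, with *En2* as the exception. Of these 15, 13 had at least 7 CpGs, the median over the 32851 promoters in the table, and the other 2 were those of *Hesx1* and the most upstream of 4 listed for *Otx2*, which has 6. The 5 *Egr2* promoters held 16 to 32 CpGs, and 3 of them overlap, as do 2 of *Otx2*. Short motifs of the members' own protein families were searched on both strands, and the first 2 share their first 4 letters. The homeodomain core TAATTA was in 2 of the 15, both of *Otx2*, and is in 5.29% of all promoters. TAATCC, read by OTX proteins, was in 1, also of *Otx2* (7.06% of all promoters), and ACAAAG, read by SOX proteins, was in 1, that of *Sox2* (18.7% of all promoters). The EGR site GCGTGGGCG was in 0 of the 15 (0.612% of all promoters).

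No member passed the test between the father groups. At the study's own cut-off, an adjusted p under 0.01 and at least 2-fold, limma called 0 of the 9 probes that could be tested, where it called 0 of 33096 probes overall (0%). At an unadjusted p under 0.05 the members also gave 0 of 9, beside 1440 or 4.35% of all tested probes. That count was 1 of 9 under quantile normalization, with array weights, with trended moderation, with the stricter filter and without WT father replicate 1 or HET father replicate 3, and 2 of 9 under normexp background correction and without WT father replicate 4. Over all 33096 tested probes it also rose, to 2596 under normexp, 3044 with array weights and 3099 without HET father replicate 3. It was 1487 under quantile normalization, 1486 with trended moderation, and 1245 and 1384 without WT father replicates 1 and 4. With the stricter filter it was 1346 of 27600 probes. The groups overlapped at all 9 member probes, while 3.16% of all tested probes had groups that did not overlap. The median log2 fold change of the 8 tested genes, HET father minus WT father, was -0.02, with 4 genes higher and 4 lower, beside -0.00018 over all tested probes. In the main fit (75th percentile set to 0, embryos taken as independent) the 95% confidence interval of every tested member probe lay within a 2-fold change either way. The lowest end was 0.515-fold and the highest 1.66-fold. This bound holds for that fit only. The standard error of the second *Sox1* probe, 0.21 there, was 0.26 with embryo code fitted as a random block and 0.31 with arrays aligned on their medians. Intervals under these settings would be wider. The number of arrays limits this precision.

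**Figure D1:**
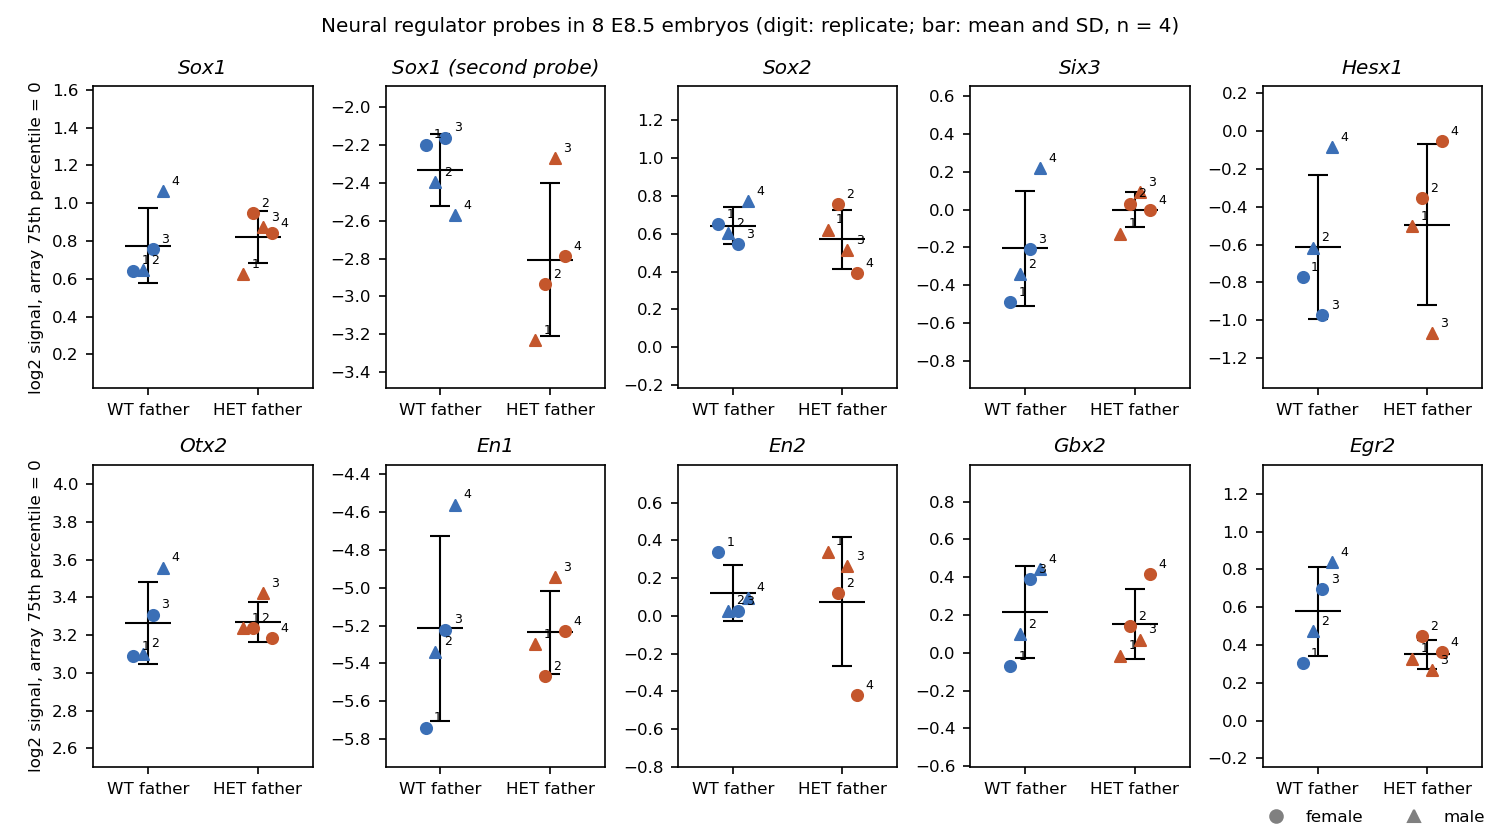
Log2 signal (y axis, 75th percentile of the array = 0) of the 10 probes in embryos of WT fathers (blue) and HET fathers (orange), with circles for females, triangles for males, the replicate as a digit, and the mean and SD (n = 4) as bars. Panels have separate axes. The groups overlap in all 10 panels, and WT father replicate 4 is the highest of the 8 embryos in 7 genes.

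In the *Sox* genes of the neural plate the father groups lay close together, except on the dimmer *Sox1* probe. *Sox1* measured 0.64, 0.64, 0.76 and 1.06 with WT fathers and 0.62, 0.95, 0.87 and 0.84 with HET fathers on its brighter probe, in log2 signal. Its log2 fold change of 0.04 (standard error 0.12) had an adjusted p of 1.00 from limma, and turned to -0.06 when arrays were aligned on their medians. *Sox2* measured 0.65, 0.60, 0.55 and 0.77 against 0.62, 0.76, 0.51 and 0.39. Of the HET father values of *Sox2* 2 lay inside the WT father range and 2 below it, and its log2 fold change was -0.07 (standard error 0.10, adjusted p of 1.00 from limma). Of the 8 genes *Sox2* varied least within groups, with an SD of 0.13 that lay at percentile 27.6 of all tested probes.

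The second *Sox1* probe did not follow the first. It measured -2.20, -2.40, -2.16 and -2.57 with WT fathers and -3.23, -2.94, -2.27 and -2.79 with HET fathers. Of the HET father embryos 3 were below every WT father embryo, and the fourth, HET father replicate 3, lay among them. The log2 fold change was -0.48 (standard error 0.21), the largest in size of any member probe, with an unadjusted p of 0.0529 and an adjusted p of 1.00 from limma. Both probes belong to the transcript NM_009233 and were well above background on all 8 arrays. The unadjusted p was 0.00309 under quantile normalization, 0.00442 under normexp and 0.00391 with array weights, where the adjusted p from limma was 0.989, 0.562 and 0.401. Leaving out HET father replicate 3 made the difference -0.65 (unadjusted p of 0.00351, adjusted p of 0.437 from limma). When the probes of *Sox1* were averaged, the gene's change was -0.22 in place of 0.04.

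*Six3* and *Hesx1*, the anterior forebrain pair, varied more between embryos than between father groups. *Six3* measured -0.49, -0.34, -0.21 and 0.22 with WT fathers and -0.13, 0.03, 0.09 and 0.00 with HET fathers. All 4 HET father values lay inside the WT father range, and the log2 fold change was 0.20 (standard error 0.15, adjusted p of 1.00 from limma). It became 0.35 without WT father replicate 4 (unadjusted p of 0.0109, adjusted p of 1.00 from limma), 0.11 without WT father replicate 1 and 0.10 with arrays aligned on their medians. *Hesx1* measured -0.77, -0.62, -0.97 and -0.08 against -0.50, -0.35, -1.07 and -0.05. In each group of *Hesx1* one embryo was about as high as the other group's highest and one was lowest near -1.0, so its SD within groups, 0.40, was the largest among the 8 genes, at percentile 74.5 of all tested probes. Its log2 fold change was 0.12 (standard error 0.26, adjusted p of 1.00 from limma), and it turned to -0.03 without HET father replicate 4 and to -0.0036 without WT father replicate 3.

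*Six3os1*, the noncoding RNA divergent from *Six3*, was at -0.13 ± 0.16 (SD, n = 4) and -0.15 ± 0.46 (SD, n = 4). Its log2 fold change was -0.02 (limma, adjusted p of 1.00). A further *Six3os1* probe and the *Sox1ot* probes were too dim to test, and *Sox2ot* and *Otx2os1* had no matched probe.

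Either side of the midbrain-hindbrain boundary, *Otx2* and *Gbx2* differed less between the father groups than within them. *Otx2* measured 3.09, 3.10, 3.31 and 3.56 with WT fathers and 3.24, 3.24, 3.42 and 3.18 with HET fathers. Its log2 fold change was 0.01 (standard error 0.12, adjusted p of 1.00 from limma), turning to -0.10 with arrays aligned on their medians and to -0.0048 under quantile normalization. *Gbx2* measured -0.07, 0.10, 0.39 and 0.44 against -0.01, 0.14, 0.07 and 0.41, and its log2 fold change was -0.06 (standard error 0.15, adjusted p of 1.00 from limma), or 0.01 without WT father replicate 4. For both genes the highest and the lowest of the 8 embryos came from WT fathers.

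The Engrailed paralogs gave very different readings. The *En2* probe, printed on 10 spots of each array, was well above background on all spots, and its spots differed by an SD of 0.03 to 0.07 within an array. *En2* measured 0.34, 0.03, 0.02 and 0.10 with WT fathers and 0.34, 0.12, 0.26 and -0.42 with HET fathers. HET father replicate 4 was the lowest of the 8 embryos by far, with its 10 spots between -0.53 and -0.34, below every spot of the other 7 arrays. The log2 fold change of *En2* was -0.05 (standard error 0.18, adjusted p of 1.00 from limma), and it became 0.12 without that embryo and 0.03 without WT father replicate 1. The local background of that array was 133 intensity units, where the remaining HET father arrays had 30 to 32, and the part this played was not tested.

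*En1* lay near background. Its probe, also on 10 spots, was well above background on 3 of the 4 WT father arrays and on 0 of the 4 HET father arrays, so it did not enter the test. The means were -5.21 ± 0.49 (SD, n = 4) and -5.24 ± 0.22 (SD, n = 4), and no fold is given because the HET father signal is only a bound. The number of *En1* spots well above background was 4, 8, 10 and 10 with WT fathers and 3, 3, 2 and 2 with HET fathers. The detection limit differed between the slides as well. Negative control spots had a median of 4.22 to 4.95 intensity units on the WT father slide and 5.65 to 9.0 on the other, and the lowest log2 signal of any probe well above background was -6.39 to -5.64 against -5.48 to -4.57. The part of the limit in the split of detected *En1* spots was not tested.

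**Figure D2:**
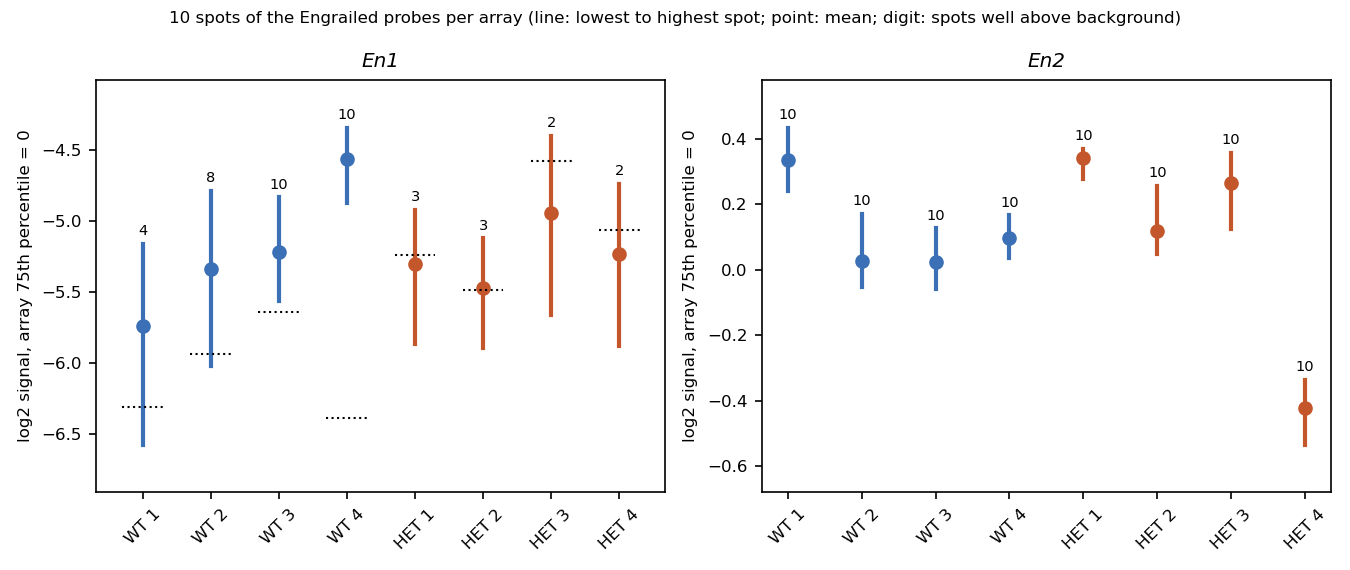
Log2 signal (y axis, 75th percentile of the array = 0) of the spots of the *En1* and *En2* probes on each array (x axis), as the lowest to the highest spot (line) and their mean (point), with the number of spots well above background as a digit; dotted lines in the *En1* panel mark the lowest probe well above background on that array. *En1* spots straddle this limit on the HET father arrays and on those of WT father replicates 1 and 2, and *En2* is lowest in HET father replicate 4.

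*Egr2*, the rhombomere gene, had the largest difference of the genes read by 1 probe. It measured 0.31, 0.48, 0.70 and 0.84 with WT fathers and 0.33, 0.45, 0.27 and 0.36 with HET fathers. The HET father values lay close together, in or just below the lower part of the WT father range, with an SD of 0.08 against 0.24. The log2 fold change was -0.23 (standard error 0.12, 0.854-fold), with an unadjusted p of 0.104 and an adjusted p of 1.00 from limma. It kept its sign under every alternative run, between -0.33 and -0.14, and never reached the cut-off, with an unadjusted p of 0.0146 under normexp and 0.0218 without WT father replicate 1 (limma).

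**Figure D3:**
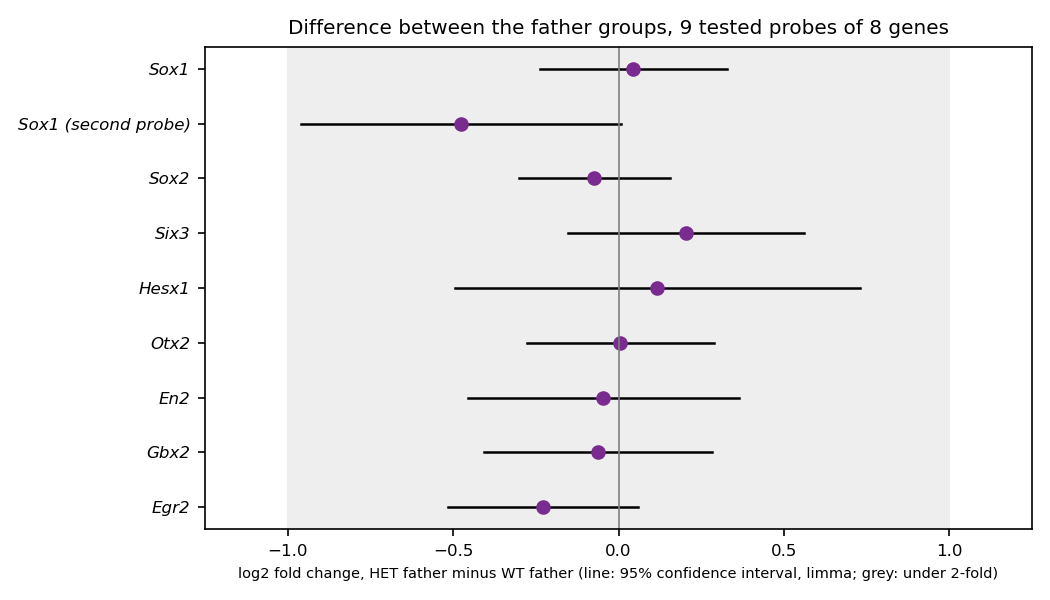
Log2 fold change (x axis, HET father minus WT father) with its 95% confidence interval from limma for the 9 tested probes of 8 genes. All intervals, which are from the main fit with embryos taken as independent, stay inside the grey band of less than 2-fold, and the second *Sox1* probe, at -0.48, lies farthest from 0.

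The sexes were compared in the same way. Male and female embryos, 4 of each, gave 0 calls among the 9 tested member probes with father's genotype in the fit (limma, at the same cut-off), beside 11 or 0.0332% of all tested probes. At an unadjusted p under 0.05 the members again gave 0 of 9, where 3.27% of all tested probes passed. The log2 differences, male minus female, ran from -0.10 for the second *Sox1* probe to 0.17 for *En2*. The father's effect differed between the sexes at an unadjusted p under 0.05 for 1 member, *Hesx1*, beside 2.22% of all tested probes. That interaction was -1.11 on the log2 scale (unadjusted p of 0.0332 and adjusted p of 1.00 from limma), so it failed the correction. Behind it are 2 embryos in each cell, with *Hesx1* at -0.77 and -0.97 in WT father females, -0.62 and -0.08 in WT father males, -0.35 and -0.05 in HET father females, and -0.50 and -1.07 in HET father males.

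Most of the spread was between embryos of the same father group, and in these 9 genes one embryo stood out. WT father replicate 4, a male, was the highest of the 8 embryos for 7 of the 9 genes, all but *Hesx1* and *En2*, where it was the highest of all 8 at 10.5% of all tested probes. This count takes the brighter *Sox1* probe and includes *En1*, which is near background. On the second *Sox1* probe the same embryo was the lowest of its group. Its median deviation from the mean of the 8 embryos, over the 8 tested genes, was 0.28 on the log2 scale, while that of all tested probes was 0.02. In the other 7 embryos the median of the 8 genes lay between -0.17 and 0.08. In the wider neural lists given below this embryo was also high, though HET father replicate 3 was higher in all but the midbrain list. Its mean deviations were 0.23 (neural plate), 0.12 (forebrain), 0.17 (midbrain) and 0.07 (hindbrain). HET father replicate 3 had 0.24, 0.28, 0.16 and 0.10 in the same order, with 0.10 as its median over all tested probes. WT father replicate 1, a female, was the lowest of its own group for *Six3*, *Otx2*, *Gbx2*, *Egr2* and *En1*. It was also the lowest on the brighter *Sox1* probe, though only just (0.643 against 0.644 in WT father replicate 2). WT father replicate 4 was low in the 7 primitive erythroid genes, early red cell markers such as the embryonic globin *Hbb-bh1*, with a mean deviation of -1.0 against -0.05 to 0.42 in the other 7 embryos, and it was low in yolk sac endoderm genes (-0.33 against -0.13 to 0.24). Whether fewer such cells or less RNA in each was behind these low signals cannot be told apart, and their part in the members' values was not tested. Without WT father replicate 4 the median log2 fold change of the members was 0.06 in place of -0.02.

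**Figure D4:**
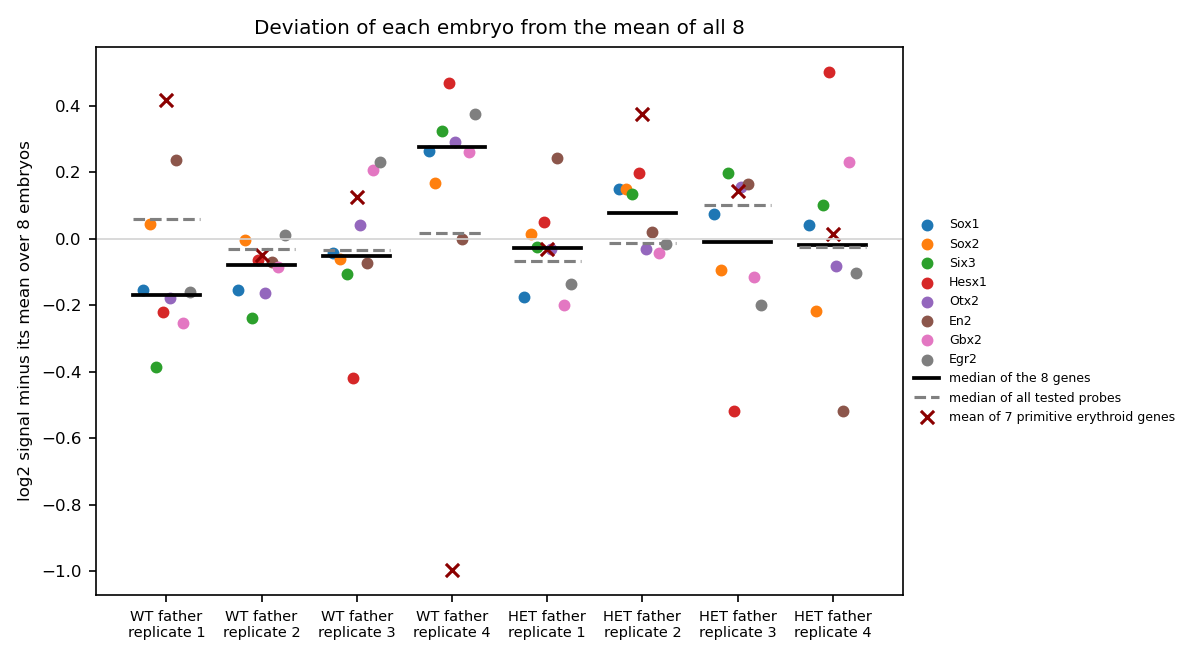
Log2 signal of the 8 tested genes in each embryo (x axis) minus the gene's mean over all 8 embryos (y axis), with the median of the 8 genes (black line), the median of all tested probes (dashed grey line) and the mean of 7 primitive erythroid genes (crosses). In WT father replicate 4 the gene median is 0.28 and the erythroid mean is -1.0.

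Partner genes were compared across the 8 embryos to see whether they rose and fell together. *Sox1* and *Sox2* had Pearson's r of 0.31 (two-sided exact permutation p = 0.448) and Spearman's rho of 0.21 (exact permutation p = 0.619). *Six3* and *Hesx1* had r of 0.43 (exact permutation p = 0.283) and rho of 0.33 (exact permutation p = 0.428), and *Otx2* and *Gbx2* had r of 0.50 (exact permutation p = 0.208) and rho of 0.45 (exact permutation p = 0.267). After adjustment over these 3 pairs the exact permutation p was 0.424 to 0.448 for r and 0.619 for rho. Within father groups, as deviations from the group means, r was 0.38, 0.41 and 0.51 in the same order (exact permutation p of 0.347, 0.345 and 0.286). Without the 2 embryos farthest from the median of the first gene r was 0.01, 0.12 and 0.53, and no relation passed the test with or without them. *En1* and *En2* were also planned as a pair, but *En1* was too dim to enter. With arrays aligned on their medians r rose to 0.94, 0.92 and 0.96 (adjusted exact permutation p of 0.0157, 0.00439 and 0.00666), a setting that moves all probes of an array together, by the medians given above.

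The wider set of neural patterning genes had no called gene either. Of 78 genes in 4 lists, 77 had a probe and 74 could be tested, of which limma called 0 at the study's cut-off. At an unadjusted p under 0.05 there were 0 higher and 2 lower genes of 74, beside 4.35% of all tested probes, and 38 genes were higher and 36 lower with a median log2 fold change of 0.01. The per-list medians were -0.02 for neural plate and progenitor genes (7 higher, 10 lower), 0.05 for forebrain and eye field (14 higher, 5 lower), -0.15 for midbrain and isthmus (4 higher, 12 lower) and 0.02 for hindbrain and rhombomere (13 higher, 9 lower). With arrays aligned on their medians, which moved the median of all probes to -0.10, they became -0.13 (1 higher, 16 lower), -0.05 (6 higher, 13 lower), -0.25 (2 higher, 14 lower) and -0.08 (6 higher, 16 lower), and the forebrain and hindbrain medians thus changed sign, as they did under quantile normalization, at -0.01 for both (9 higher and 10 lower, and 11 higher and 11 lower). Under normexp the hindbrain median was -0.04. Without WT father replicate 4 the medians were 0.06 (10 higher, 7 lower), 0.12, -0.05 and 0.08, so that of the neural plate list also changed sign, as it did at 0.02 with embryo code fitted as a random block. Without HET father replicate 4 the forebrain and midbrain medians were 0.13 and -0.10. The hindbrain median fell below 0 without WT father replicate 2 (-0.01) or HET father replicate 3 (-0.02).

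The genes with an unadjusted p under 0.05 were both in the midbrain and isthmus list. *Dmbx1*, a homeobox gene of the midbrain, measured -0.62, -0.58, -0.61 and -0.52 with WT fathers and -1.0, -1.05, -0.87 and -0.91 with HET fathers. Its groups did not overlap, at 1 of the 74 genes beside 3.16% of all tested probes, and its log2 fold change was -0.38 (standard error 0.07) with an unadjusted p of 0.000663 and an adjusted p of 0.849 from limma. With an embryo left out it stayed between -0.40 and -0.34. *Pax3*, a dorsal neural tube gene named here after its values were seen, had -0.22 (unadjusted p of 0.0299, adjusted p of 1.00 from limma), and a second *Pax3* probe had -0.23 (unadjusted p of 0.0281 from limma).

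*Wnt1*, the midbrain and isthmus signal, had the largest positive value of the 4 lists at 0.59, and it rested on 1 embryo. Its brighter probe was at 3.06 in HET father replicate 1 and between 0.47 and 0.96 in the other 7 embryos, and without that embryo the log2 fold change was 0.01. The second *Wnt1* probe was at -4.14 in HET father replicate 1, within the -5.07 to -3.64 of the other 7, and had a log2 fold change of -0.27. In the same list *Lmx1b* had -0.37, with -0.27 on a second probe and -0.04 without WT father replicate 3, and *Lmx1a* had 0.14. In limma the adjusted p of these 3 genes was 1.00.

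In the neural plate list *Zic2* had -0.77, *Zic1* -0.45 and *Pou3f1* 0.22, of which *Zic1* and *Zic2* encode zinc finger factors of the early neural plate. *Zic2* varied widely in both groups, from -0.87 to 1.54 with WT fathers and from -1.20 to 1.23 with HET fathers. With an embryo left out *Zic2* ran from -1.27 (without HET father replicate 3) to -0.41 (without WT father replicate 4). *Zic1* was at -0.16 without HET father replicate 4, and a second *Zic1* probe had -0.13. The forebrain list ran from *Otx1* (-0.49) and *Six6* (-0.25) to *Emx1* (0.31) and *Fezf2* (0.41), and the first 3 of these were well above background on 7 of the 8 arrays. *Emx1* was at -0.23 without HET father replicate 3 and *Otx1* at -0.22 without HET father replicate 1, and *Fezf2* had 0.08 under normexp. The hindbrain list, which includes *Nab1*, a partner that represses EGR proteins, had *Nab1* at -0.18, *Cyp26b1* at -0.12 and *Rarb* at 0.19, with -0.0018 on a second *Rarb* probe. In limma the adjusted p was 1.00 for all 10 genes named from these 3 lists.

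**Figure D5:**
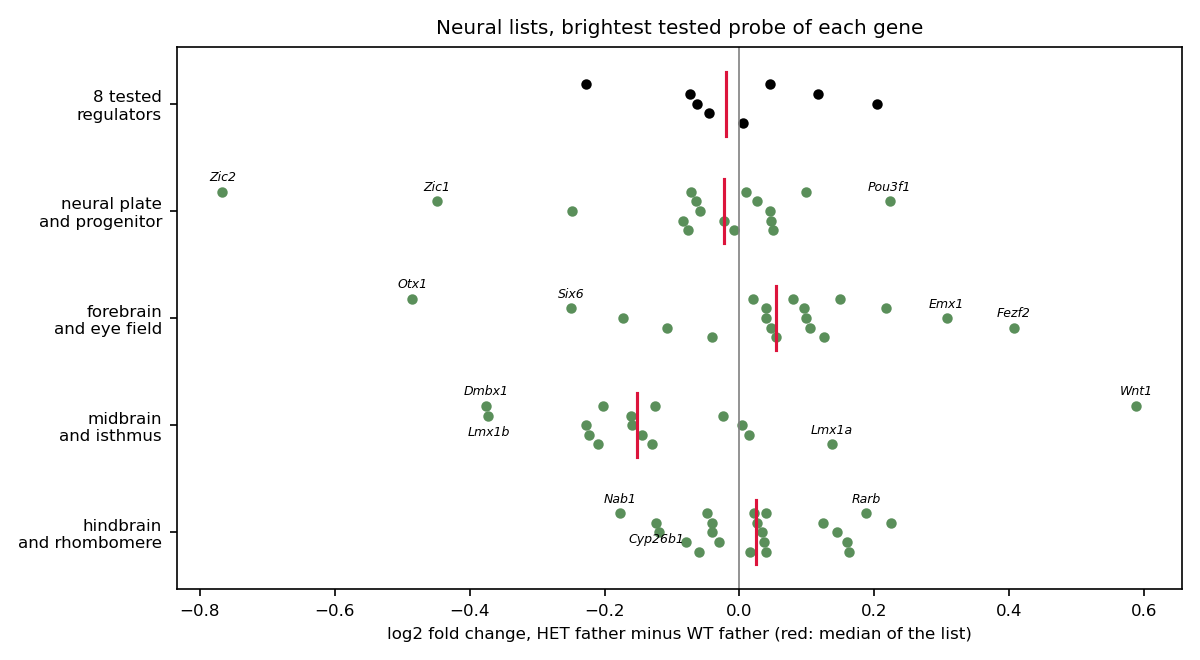
Log2 fold change (x axis, HET father minus WT father) of the brightest tested probe of each gene, for the 8 tested regulators and the 4 wider neural lists, with the median of each list as a red line and the named genes labelled. The list medians lie between -0.15 and 0.05.

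Markers of other tissues were set beside the neural genes. Of the 8 trophoblast and decidua genes 6 could be tested and all 6 were lower with HET fathers, with a median of -0.07. With any 1 embryo left out 1 or 2 of the 6 were higher, and the median lay between -0.26 (without HET father replicate 4) and -0.09 (without HET father replicate 2). Their mean deviation was 0.18 to 0.51 in the WT father embryos and -1.02 to 0.08 in the HET father embryos. The largest of the 6 changes was that of *Prl8a2*, a hormone of the decidua, at -2.46 (unadjusted p of 0.0126, adjusted p of 1.00 from limma). The next was -0.91 and the rest lay between -0.07 and -0.04, so the difference in mean deviation rests mostly on 2 genes. All 7 primitive erythroid genes were higher with HET fathers, with a median of 0.19 and mean deviations of -1.0 to 0.42 against -0.03 to 0.38. This direction rested on WT father replicate 4, without which 2 were higher and 5 lower, with a median of -0.03. Neither list had a called probe, and the part of these tissues in the neural values was not tested.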

How the data were processed

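Gene expression was measured in 8 wild-type E8.5 mouse embryos, 4 for each father's genotype. The authors labelled the RNA with a single dye, hybridised it to Agilent SurePrint G3 Mouse GE 8x60K arrays and extracted the spots with Agilent Feature Extraction 11.0.1.1. In the deposited intensity values the authors had subtracted the background and removed spatial trends, without scaling one array to another. A deposited table for the series, used as an alternative, had 0 unused columns of sample values and differed from the scanner files by at most 0.497%.

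The log2 intensity was shifted by each array's 75th percentile. Control spots and flagged outliers were removed, and a probe's spots were averaged. Testing required a mean above the lowest 20% of probes and a signal well above background on 4 or more of the 8 arrays, and a probe on several spots counted as above background where at least 0.5 of them were. Groups were compared with limma 3.58.1 (R 4.3.3, with the data.table package, 1.17.8) with Benjamini-Hochberg adjustment over 33096 probes. For a check of the fit, arrays were simulated with these probes' means and within-group spread, and known changes were added to some probes. Pairs of genes were compared with exact permutation over all pairings (numpy 2.4.6, scipy 1.17.1, pandas 2.3.3, Python 3.11.15, matplotlib 3.10.9). RefSeq accessions were carried by 28685 probes, and 27235 of these got a symbol through the GRCm38.p6 annotation. For genes with several probes the brightest tested one was used, and the second *Sox1* probe is given beside it.

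Members, gene lists and tests were chosen with earlier results of these data known. The genes named are all members, the noncoding neighbours, and in each neural list the 2 largest rises and 2 largest falls, of which 2 genes are not reported here. In the lists of other tissues at most 1 gene was named. Alternatives were other normalizations, normexp background correction (offset 50, on the median spot signal), filters, covariates, blocks, moderation, array weights, averaged probes and each embryo left out.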

Additional observations from a re-analysis of the deposited data

Results flagged for a closer look

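Within each father group, the distance of the highest and lowest embryo to the next one was set against the group's range. Over the probes of the members and of the named genes this gave 50 groups of 4, and 2 passed the 95% limit of Dixon's test, where chance gives about 1 in 20, or 2.5. Neither was a member probe. *Emx1* in WT father replicate 1 had a gap of 0.852 of the range, on a probe near background. *Wnt1* in WT father replicate 4 had 0.861, in a group that spans only 0.72 to 0.77 on the log2 scale.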

How the results depend on the processing

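The count of member probes called stayed at 0 in both comparisons, by father and by sex, and the count for the wider neural lists at 0, under 12 other settings and with each embryo left out in turn. The smallest adjusted p of a member probe in the father comparison was 0.401 to 1.00 under the other settings and 0.437 to 1.00 with an embryo left out (limma). The median of the members ran from -0.12 (arrays aligned on their medians, where all tested probes had -0.10) to 0.02, and from -0.06 to 0.06 with an embryo left out. For scale, the member median of single embryos had an SD of 0.14 within groups, which is not the error of a difference between groups. With medians aligned *Sox1* had -0.058 and *Otx2* -0.10. *Otx2* had -0.0048 under quantile normalization and -0.00048 with array weights, *Sox1* -0.22 with its probes averaged, and under normexp *Lmx1a* had -0.027. With an embryo left out the ranges that crossed 0 were -0.031 to 0.31 for *Hesx1*, -0.052 to 0.10 for *Otx2* (below 0 without WT father replicate 1 or 2 or HET father replicate 3), -0.13 to 0.12 for *En2*, -0.16 to 0.013 for *Gbx2*, -0.20 to 0.17 for *Six3os1* (above 0 without WT father replicate 1, HET father replicate 1 or 4), -0.78 to 0.54 for *Six6* (above 0 without WT father replicate 1 or HET father replicate 4), -0.23 to 1.1 for *Emx1* and -0.25 to 0.11 for *Cyp26b1* (above 0 without WT father replicate 1 or HET father replicate 4). The correlation of *Sox1* with *Sox2* was 0.94 with medians aligned and -0.030 with probes averaged, those of *Six3* with *Hesx1* and of *Otx2* with *Gbx2* were 0.92 and 0.96 with medians aligned, and with an embryo left out the ranges were -0.064 to 0.54, 0.22 to 0.78 and 0.21 to 0.69. Except for the shift of all probes by the median setting, the causes were not tested.

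The labels do not say that replicate numbers pair the samples. In deviations from mean signals, not in the signals themselves, WT and HET father embryos of the same number correlated at -0.55, -0.05, -0.59 and -0.15. Those of different numbers had -0.52 to 0.66. These values cannot decide whether a pairing exists, because embryos of the same number differ in sex and slide. With the replicate block the members and the wider lists again gave 0 calls, the member median was -0.02, and probes at an unadjusted p under 0.05 went from 1440 to 875 over the array. With embryo code fitted as a random block (estimated correlation 0.54) the latter count was 685, without HET father replicate 3 it was 3099, and with array weights it was 3044. Without the filter on dim probes *En1* entered as well, with 0 of 10 probes called. The pair of *En1* with *En2* was not run. Signal over background limits *En1*, *Emx1*, *Six6* and *Otx1*.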
